A study of Mus musculus with 2 samples.

Results

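Dividing cells were picked out of the primary library of costal-cartilage-derived stem cells (CDSCs) by the RNA of 8 genes that cells make in the G2 phase and mitosis. The genes were Top2a and Mki67, which untangle and coat chromosomes, Cenpf and Cenpe at the kinetochore, Hmmr, Nusap1 and Tpx2 on the spindle, and Ube2c, which hands ubiquitin to mitotic proteins. A cell barcode was a member when its UMIs (unique molecular identifiers, which count captured RNA molecules) over these genes summed to at least 10. Barcodes had to carry 5000 UMIs or more from 500 genes or more, with mitochondrial genes giving no more than 10%. Of the 10959 primary barcodes that passed, 167 were members, a share of 1.52% with an exact 95% Clopper-Pearson interval of 1.30% to 1.77%. The other 10792 filtered primary barcodes were the comparison throughout. The filter left out 937 primary barcodes.

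The series held 1 library of primary CDSCs and 1 library of CDSCs cultured to passages 2 to 3, both made with droplet 3′ single-cell RNA sequencing from 20000 viable cells. Per the study's methods, the cells came from the rib cartilage of newborn CD45.1 or ZsGreen C57BL/6J mice, were freed with collagenase and were sorted as CD45- CD51+, a gate against blood cells and for integrin alpha V. The labels named the cells after costal cartilage but gave bone marrow as the tissue of both libraries. How many mice were pooled was not given in the sources used here, and ZsGreen RNA was present in the primary library. Each group was 1 library, so differences have no replicate check, no test was run, cells are not replicates, and all intervals cover counting error only. The members were chosen by values of the same cells that are described here, so genes that dividing cells make together with the 8 selecting genes describe the selection and support nothing on their own.

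Cartilage grows when chondrocytes divide, stack into columns and then enlarge, and most cells of a mature cartilage rest between divisions. A dividing cell first copies its DNA in S phase with the MCM helicase, the PCNA clamp and newly made histones. It then builds up cyclin A and cyclin B with the kinase CDK1 in G2, assembles the spindle and kinetochores in mitosis, and leaves mitosis when the anaphase-promoting complex (APC/C) with its activators Cdc20 and Cdh1 destroys the cyclins. Many late genes share a promoter grammar in which CCAAT boxes, bound by NF-Y, stand near a cell cycle homology region (CHR), bound by the MuvB core of the DREAM and B-Myb complexes.

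Promoters of 5 such genes, fixed together with the motifs searched for, are printed as examples. All 5 were far higher in the members (values below), but they were not chosen by the rank of their ratios. Each line gives the 250 bases before the annotated start, 5′ to 3′ on the gene's strand, from RefSeq on GRCm38.p6. Capitals mark CCAAT (or ATTGG on the other strand) and the CHR letters TTTGAA.
Ccnb2, cyclin B2, chr9:70421555-70421804, minus strand: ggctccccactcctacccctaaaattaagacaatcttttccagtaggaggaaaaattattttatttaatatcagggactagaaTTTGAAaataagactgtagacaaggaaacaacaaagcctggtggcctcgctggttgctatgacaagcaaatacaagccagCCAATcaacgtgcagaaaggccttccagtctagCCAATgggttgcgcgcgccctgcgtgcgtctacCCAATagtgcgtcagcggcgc
Cdc20, APC/C activator, chr4:118437344-118437593, minus strand: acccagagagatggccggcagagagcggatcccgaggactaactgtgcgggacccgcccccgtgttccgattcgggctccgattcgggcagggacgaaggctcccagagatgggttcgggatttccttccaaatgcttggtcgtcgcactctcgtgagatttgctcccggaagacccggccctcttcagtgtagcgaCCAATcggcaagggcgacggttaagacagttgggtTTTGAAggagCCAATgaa
Plk1, mitotic polo kinase, chr7:122159185-122159434, plus strand: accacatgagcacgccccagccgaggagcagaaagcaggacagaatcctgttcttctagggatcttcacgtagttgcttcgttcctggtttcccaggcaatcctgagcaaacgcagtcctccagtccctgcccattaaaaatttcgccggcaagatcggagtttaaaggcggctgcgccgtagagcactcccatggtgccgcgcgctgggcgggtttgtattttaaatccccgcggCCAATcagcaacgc
Cdk1, the cyclin B kinase, chr10:69352913-69353162, minus strand: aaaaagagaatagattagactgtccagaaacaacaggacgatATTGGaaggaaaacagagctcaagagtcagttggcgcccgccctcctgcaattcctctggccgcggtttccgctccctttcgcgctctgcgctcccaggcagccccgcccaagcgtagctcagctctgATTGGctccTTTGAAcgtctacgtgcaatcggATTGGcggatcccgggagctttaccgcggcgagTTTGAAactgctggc
Kif23, central spindle kinesin, chr9:61946800-61947049, minus strand: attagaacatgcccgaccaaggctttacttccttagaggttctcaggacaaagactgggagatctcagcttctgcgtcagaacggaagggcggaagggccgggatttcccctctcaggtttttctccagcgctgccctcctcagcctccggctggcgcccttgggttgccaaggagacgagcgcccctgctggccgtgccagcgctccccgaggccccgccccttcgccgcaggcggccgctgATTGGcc

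The motif search covered both strands of the full window of 300 bases, 250 before and 50 after the start. All 5 windows held CCAAT and TTTGAA, and none of the 5 held the variant TTCGAA. Over all 32851 promoter windows of the RefSeq table, 37.4% held CCAAT, 17.9% TTTGAA and 1.56% TTCGAA, and 7.52% held CCAAT together with either of the others. Ccnb2 carried 3 CCAAT boxes, which began 87, 54 and 21 bases before the start, and a TTTGAA that began 4 bases after it, outside the printed stretch. Its other TTTGAA, the one in capitals above, began 167 bases before the start, upstream of all its CCAAT boxes. Plk1 and Kif23 had their only TTTGAA after the start, at 30 and 2 bases. The genes were fixed together with these motifs, as late cell cycle genes, and with their high values known. The 5 of 5 is therefore a description of chosen examples and cannot be set against the shares of all windows. A match of letters is no evidence that a protein binds there.

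The selecting genes separated the library into a large group with almost none of their RNA and a long tail. Of the filtered primary barcodes, 9784 had 0 UMIs of the 8 genes, 863 had 1, 123 had 2 to 4 and only 22 had 5 to 9. Above the threshold, 32 barcodes had 10 to 19, 75 had 20 to 49 and 60 had 50 or more, up to 167. The median member had 40 selecting UMIs, which were 0.236% of its RNA. Summed over cells, Ube2c was at 530 CPM (counts per 1000000 UMIs of the group's summed RNA) in the members and 2.20 CPM in the others, Top2a at 418 against 1.59, Cenpf at 353 against 0.709, Mki67 at 352 against 1.31, Tpx2 at 237 against 1.56, Cenpe at 190 against 0.519, Hmmr at 155 against 0.343 and Nusap1 at 140 against 1.72. The 12 members just inside the threshold, with 10 to 14 UMIs, had 1195 CPM summed over mitotic cyclins and kinases and 3798 CPM over replication genes. The 22 barcodes just outside, with 5 to 9 UMIs, had 694 and 4267 CPM, so the barcodes on both sides of the limit were rich in replication RNA.

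**Figure D1:**
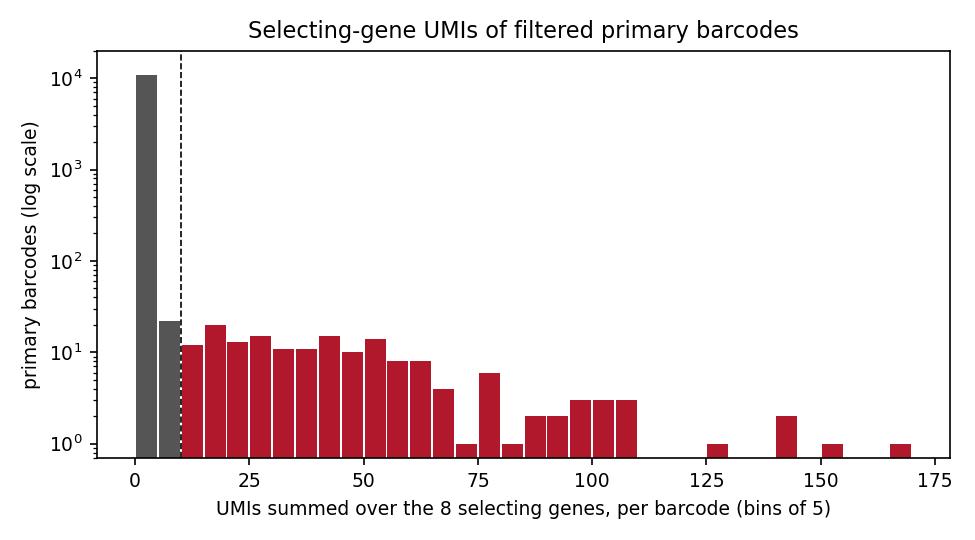
Number of filtered primary barcodes (log axis) by their UMIs summed over the 8 selecting genes, in bins of 5, with members in red and the threshold of 10 as a dashed line. The 22 barcodes with 5 to 9 UMIs form a thin bridge between the large bar near 0 and the 167 members, which reach 167 UMIs.

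The members were chondrocytes by their cartilage RNA. Col2a1, the main cartilage collagen, had a median of 55729 CPM per member (quartiles 44608 and 66210) and 51594 CPM per other barcode (quartiles 37361 and 64089). All 11 fixed chondrocyte markers (Col2a1, Acan, Sox9, Col9a1, Col9a2, Col9a3, Col11a1, Col11a2, Matn1, Hapln1 and Cnmd) stayed within 2-fold between the groups. Over all genes compared below, 5731 of 6344 did so, which means that this count alone does not bear on the label. Col2a1 RNA alone does not mark a chondrocyte here, since the 17 filtered barcodes with at least 10 UMIs of endothelial genes, 1 of them a member, had 29051 CPM of it. In those 17, 10 of the 11 markers were lower than in the members, with Acan, the aggregating proteoglycan, at 1059 CPM against 2434 CPM and Sox9 at 791 CPM against 1189 CPM, and Pecam1 was at 895 CPM. The exception was Matn1, which was low in both, at 15.3 CPM in those 17 and 14.4 CPM in the members. The share of free RNA or of doublets in these values was not tested.

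A few members departed from the label. Col2a1 was at 940 and 1811 CPM in 2 members, which also had at least 1% of their UMIs from Col1a1, Col1a2 and Col3a1, the collagens of fibrous tissue, while the next lowest member had 17421 CPM. Among the others, 100 barcodes (0.927%) lay under 5000 CPM of Col2a1. At least 3 UMIs of the 10 endothelial genes were found in 6 members (3.59%) and 51 others (0.473%), and 1 member held 90 of the 144 endothelial UMIs, 20 of them from Pecam1, together with 512 Col2a1 UMIs. None of the 167 members reached 3 UMIs of the haematopoietic or the erythroid list, which allows a share of up to 1.80% when a count of 0 is taken as at most 3, and Ptprc, the gene of the sorted CD45, was at 0 in the members. Smooth muscle and pericyte genes reached 3 UMIs in 37.7% of members and 17.3% of others, tenocyte genes in 29.9% and 43.5%, skeletal muscle genes in 66.5% and 35.7%, and Schwann genes in 58.1% and 35.8%, at the unequal depths given below. Summed levels were 45.1 CPM in members and 15.3 CPM in others for endothelial, 5.64 and 14.6 for haematopoietic, 0.627 and 5.34 for erythroid, 244 and 183 for smooth muscle, 464 and 308 for skeletal muscle (Myod1, Myf5, Pax7, Myog and Ttn at 0 in members) and 180.5 and 188 CPM for Schwann genes. Their part in the results was not tested. On the gene level used below, no endothelial, haematopoietic or erythroid gene was compared, 2 of 3 tenocyte genes (Scx and Col12a1) were at least 2-fold lower with a list median log2 ratio of -1.38, and the 2 smooth muscle (median -0.09, but 0.22 with members set by at least 5 marker UMIs and -0.45 with at least 20), 2 skeletal muscle (0.55) and 1 Schwann gene (-0.06) lay within 2-fold. Without the 2 members under 5000 CPM of Col2a1, a setting added after the data were seen, 509 genes instead of 513 were at least 2-fold higher and 109 instead of 100 at least 2-fold lower.

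Members held more RNA than other chondrocytes. The median member had 17804 UMIs (range 6951 to 56586) and 4323 genes, the median other barcode 10355 UMIs and 2997 genes, so the ratio of the median UMIs was 1.72 with a 95% interval of 1.59 to 1.85. That interval comes from the members' median alone, with the median of the others taken as fixed. A fixed minimum of marker UMIs favours deep barcodes, and its part in this ratio was not tested. With members set by 10 marker UMIs per 10000 UMIs the ratio was 1.66, over 141 barcodes that were all members by the fixed minimum too. After every barcode was thinned to 5000 UMIs, the median was 2060 genes in members and 1922 in others. The median mitochondrial share was 1.62% against 1.82%, and the ribosomal protein share 15.1% against 17.4%. Doublets, droplets with 2 cells, were not called. Of the members, 30 (17.96%) lay above the 95th percentile of UMIs of the filtered primary barcodes, and such barcodes remain possible doublets. The ratio was 1.63 without all barcodes above that percentile. The barcode sequence of 1 member also occurred in the cultured library, which shared 32 sequences with the primary library.

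Across all genes, a gene was compared when it had at least 20 CPM in the members or the others, and its counts were summed over cells. Genes far below 20 CPM in the members or the others passed only through the opposite group. Such genes were at least 2-fold apart by the minimum itself, which bears on the counts of each list below. Of 6344 genes outside the selecting 8, 513 (8.09%) were at least 2-fold higher in the members, 100 (1.58%) at least 2-fold lower, and 5731 within 2-fold, with a median log2 ratio of 0.03. The higher genes reached far: 252 were at least 4-fold and 126 at least 16-fold higher, while only 3 were at least 4-fold lower. The 8 lists of cell cycle genes held 167 of the 513 higher genes, out of 192 of their genes compared. The 346 higher genes on no such list included H2az1, a histone variant, at 2414 CPM against 197 CPM, Cdca3, a mitotic entry factor, at 433 CPM against 2.31 CPM, and Neil3, a DNA glycosylase, at 107 CPM against 0.320 CPM.

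**Figure D2:**
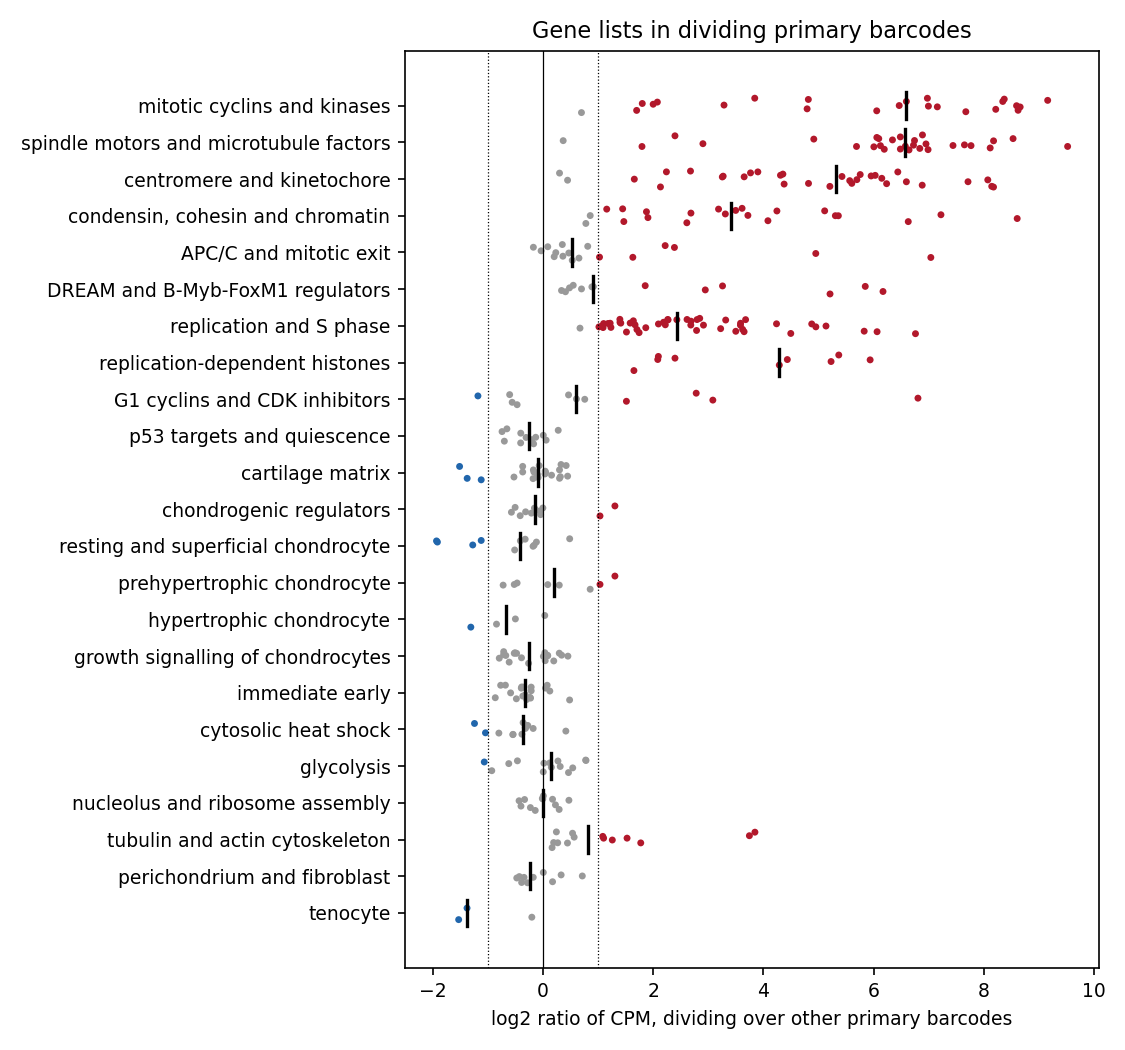
Log2 ratio of CPM in the 167 members over the 10792 other primary barcodes for each gene with at least 20 CPM, by gene list, with at least 2-fold higher genes in red, at least 2-fold lower in blue and a black bar at each median. Medians are 6.59 for mitotic cyclins and kinases, 6.58 for spindle genes, 5.32 for centromere and kinetochore genes and 0.53 for APC/C and mitotic exit genes. They are 2.43 for replication genes and -0.09 for cartilage matrix genes.

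Mitotic cyclins and kinases had the highest median of the lists that the rule did not name. All 23 genes of the list passed the minimum level, 22 were at least 2-fold higher and none lower, with a median log2 ratio of 6.59. Bub1, a checkpoint kinase, was at 47.9 CPM in members and 0.0839 CPM in others, a log2 ratio of 9.16 (95% interval 8.28 to 10.19). Plk1 was at 77.1 CPM against 0.191 CPM (log2 8.66, 8.06 to 9.32). Ccnb1, cyclin B1, was at 189 CPM against 0.488 CPM (log2 8.59, 8.22 to 8.99). Ccnb2 had a log2 ratio of 7.16, Ccna2, cyclin A2, of 8.34, and Pbk, a mitotic kinase, of 8.62. Cdk1 was at 444 CPM against 4.59 CPM (log2 6.59, 6.46 to 6.73). Cdc25a, a phosphatase that also acts at the start of S phase, was the exception within 2-fold, at 24.8 CPM against 15.2 CPM.

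Genes of the spindle and the kinetochore were also higher. Of the 29 spindle motors and microtubule factors, 28 were at least 2-fold higher (median log2 6.58), and of the 33 centromere and kinetochore genes 32 passed the minimum level and 30 were higher (median log2 5.32). Stmn1, which frees tubulin from microtubules, was at 893 CPM against 7.80 CPM. The kinesin gene Kif11, whose motor pushes spindle poles apart, had a log2 ratio of 6.74, Kif23 of 5.69 and Kif22, a chromosome kinesin, of 6.99. Prc1 (log2 6.58) and Racgap1 (6.72) build the central spindle, and Knstrn (7.65) and Ckap2l (8.18) bind spindle microtubules. Of the chromosomal passenger complex, Birc5 was at 419 CPM against 2.00 CPM, Cdca8 at 280 CPM against 0.969 CPM and its kinase Aurkb at 104 CPM against 0.351 CPM. Cenpa, the histone of centromeres, was at 470 CPM against 6.24 CPM, and Spc25, a part of the NDC80 complex, at 165 CPM against 1.71 CPM. Tuba1c, Cenpb and Zwint stayed within 2-fold.

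Chromatin and cytoskeleton genes had lower ratios. Condensin, cohesin and chromatin genes were at least 2-fold higher in 20 of 22 compared (median log2 3.40), among them the condensin subunit Smc2 at 257 CPM against 7.44 CPM and Hmgb2, a DNA-bending protein, at 1060 CPM against 55.9 CPM, while the cohesin subunit Smc3 (log2 0.78) and the heterochromatin protein Cbx5 (0.86) lay within 2-fold. Of 14 tubulin and actin genes, 7 were higher and 7 within 2-fold (median log2 0.83). The tubulins Tubb5, at 1249 CPM against 86.8 CPM, and Tuba1b, at 1021 CPM against 76.0 CPM, led that list. Actb was at 2917 CPM against 2598 CPM.

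The machinery that ends mitosis differed by part. Of 17 APC/C and mitotic exit genes, 6 were higher and 11 within 2-fold (median log2 0.53). The activator Cdc20 was at 284 CPM against 9.17 CPM and the inhibitor Fbxo5 at 60.2 CPM against 0.458 CPM. Fzr1, which encodes the activator Cdh1, had a log2 ratio of 2.22. Core subunits were closer to the others: Anapc5 had a log2 ratio of 0.35, Anapc4 of 0.09, Cdc16 of -0.03 and Cdc26 of -0.17. Of the DREAM and B-Myb-FoxM1 regulators, 13 of 23 passed the minimum level and 6 were higher (median log2 0.91). The transcription factor Foxm1 was at log2 5.21 and the repressors E2f7 and E2f8 at 5.85 and 6.17, while the NF-Y subunits Nfyb and Nfyc were at 0.70 and 0.41 and the MuvB protein Lin52 at 0.34.

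Genes of S phase were also higher. Of 57 replication and S phase genes, 47 passed the minimum level and 46 were at least 2-fold higher, with a median log2 ratio of 2.43. Tk1, which makes thymidine nucleotides, was at 117 CPM against 1.08 CPM (log2 6.76), Rrm2, a subunit of ribonucleotide reductase, at 117 CPM against 3.34 CPM (5.14), and the helicase gene Mcm5 at 36.7 CPM against 3.92 CPM (3.23). Tk1, Rrm2 and Mcm5 passed the level only through the members, so the minimum fixed their place among the 46, and the median includes them. Pcna, the sliding clamp, had one of the smaller ratios at 119 CPM against 55.9 CPM (1.09). All 9 replication-dependent histone genes of 60 that passed the level were higher (median log2 4.29), including H1f5 at 118 CPM against 2.85 CPM. H1f5 likewise passed only through the members, so the count of 9 is in part fixed by the minimum. Poly(A) priming captures these histone messages poorly, because most of them lack a poly(A) tail.

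The members differed widely in their replication RNA. Ranked by their summed CPM of mitotic cyclins and kinases, they were split into 4 groups of 42, 42, 42 and 41 cells, from lowest to highest. Replication and S phase genes summed to 3884 CPM (95% interval 3763 to 4008) in group 1, 3415 CPM (3287 to 3547) in group 2, 2077 CPM (1977 to 2180) in group 3 and 2018 CPM (1908 to 2132) in group 4. The replication genes were no part of the ranking, although both sums share each cell's total. Pcna was at 178, 157, 65.3 and 44.7 CPM from group 1 to group 4, and Ccne2, cyclin E2, at 57.0, 31.9, 11.5 and 7.98 CPM. Ccnb1, at 32.0, 81.6, 282 and 456 CPM, is a gene of the ranking list, so its order was fixed by the ranking and is given as a description. Cdc20, which is not on that list, was at 92.0, 223, 395 and 526 CPM. It also acts in mitosis, so its order is likewise a description and no separate check of the ranking. Histone genes were lowest in group 1, at 929 CPM, and lay between 1521 and 1649 CPM in the other groups. Within each group replication RNA varied widely between cells, from 610 to 9341 CPM in group 1. Of the 167 members, 130 exceeded the 90th percentile of the other barcodes, 1090 CPM, with 30 of 42 in group 1 and 31 of 41 in group 4. Replication RNA above most other barcodes was thus found in members of every group, which a label of G2 and mitosis alone does not name.

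**Figure D3:**
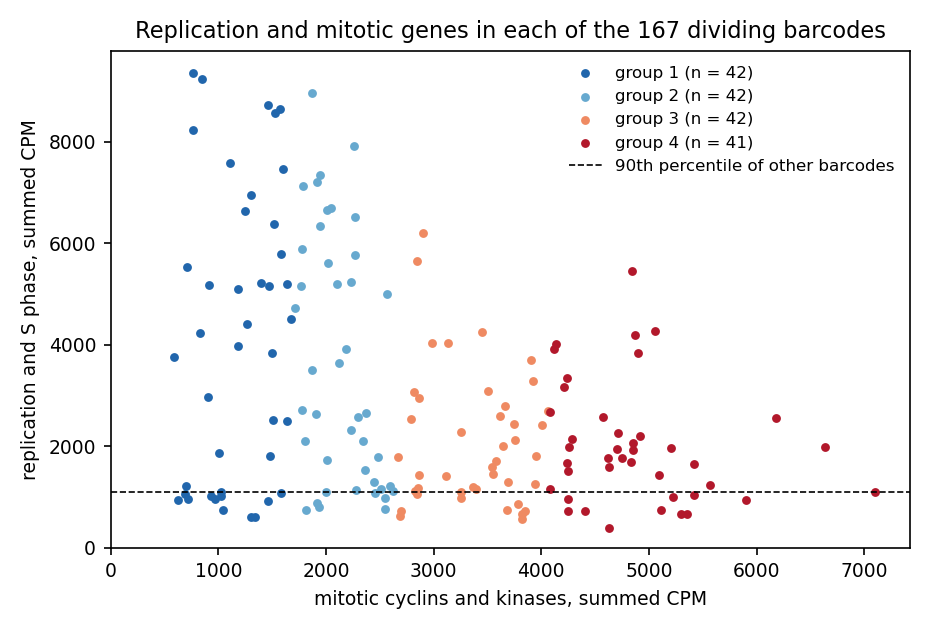
Summed CPM of replication and S phase genes against summed CPM of mitotic cyclins and kinases in each of the 167 members, coloured by group of the mitotic sum (group 1 to 4, 42, 42, 42 and 41 cells), with a dashed line at the 90th percentile of other barcodes (1090 CPM). The highest replication sum is 9341 CPM in group 1 and 5451 CPM in group 4.

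RNA content and some cartilage genes also differed between the 4 groups. The median was 24380 UMIs in group 1, 17428 in group 2, 18499 in group 3 and 15676 in group 4. The rule asks for a fixed number of marker UMIs, which a barcode with a low mitotic share reaches only when it is deep, and the part of depth in the order of the groups was not tested. Cartilage matrix genes summed to 105802, 102743, 103306 and 109490 CPM, and Col2a1 lay between 54308 and 57176 CPM in all 4 groups. Omd was at 676, 553, 293 and 287 CPM, and the CDK inhibitor Cdkn1a at 401, 353, 214 and 207 CPM, whereas Cdkn2c was at 70.0, 120, 159 and 249 CPM.

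Cell cycle brakes were not uniformly lower in dividing cells. Of 14 G1 cyclins and CDK inhibitors 11 passed the level, 4 were at least 2-fold higher and 1 lower (median log2 0.61). The inhibitors of CDK4 and CDK6 Cdkn2c and Cdkn2d were at 139 CPM against 16.4 CPM (log2 3.08, 2.93 to 3.23) and 173 CPM against 25.2 CPM (2.78, 2.65 to 2.91). Cdkn3, a phosphatase that acts on CDKs, was at 135 CPM against 1.20 CPM, and Cdk2 at log2 1.52. Ccnd2, cyclin D2 of G1, was the lower gene, at 67.1 CPM against 151.8 CPM (log2 -1.18). Cdkn1a (log2 -0.60) and Cdkn1c (-0.47), which encode p21 and p57, stayed within 2-fold. None of the 12 p53 and quiescence genes compared passed 2-fold (median log2 -0.25). That count is near the common share, since 5731 of all 6344 genes compared lay within 2-fold.

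Cartilage matrix RNA was close to its level in the other chondrocytes. The 27 genes of the list summed to 105164 CPM in the members and 105953 CPM in the others, and of 23 compared genes 20 lay within 2-fold, 3 were lower and none was higher (median log2 -0.09). Over all genes compared, 5731 of 6344 lay within 2-fold. Acan was at 2434 CPM against 1954 CPM (log2 0.32), Matn3 at 1007 CPM against 738 CPM (0.45) and Snorc, a cartilage membrane proteoglycan, at 2842 CPM against 2122 CPM (0.42). Comp, which binds collagen fibres, was at 2056 CPM against 2958 CPM (-0.52). The 3 lower genes were Cytl1, a secreted cytokine-like protein (log2 -1.37), Cilp2 (-1.51) and Prg4, the lubricin of cartilage surfaces (-1.12). The chondrogenic regulators Sox9, Sox5 and Sox6 had log2 ratios of -0.15, -0.31 and -0.21, and of the 12 regulators compared only Runx3 and Mef2c were at least 2-fold higher (median log2 -0.14). Runx3 and Mef2c passed the minimum level only through the members, and the same genes are counted again on the prehypertrophic list below.

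Some genes of resting and superficial chondrocytes were lower. Of 11 compared genes 4 were at least 2-fold lower, against 1.58% of all genes compared, and none was higher (median log2 -0.41). The 4 included Tspan13, a tetraspanin, at 24.4 CPM against 93.1 CPM, and Clu, the chaperone clusterin, at 155 CPM against 584 CPM. Wif1, a secreted Wnt inhibitor, was at 173 CPM against 418 CPM, and the last was Prg4, already counted with the cartilage matrix above. The other genes of the resting and superficial list included Ucma (log2 -0.18), Sfrp1 (-0.16) and Gdf10 (0.49). With members and others limited to the range between the members' quartiles of UMIs, that median was -1.27, and over all genes 569 were at least 2-fold higher and 150 lower. With every barcode thinned to 5000 UMIs, 214 genes were at least 2-fold lower.

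The lowest genes with at least 100 CPM in the others were mostly on no list. Ogn, a small leucine-rich proteoglycan, was at 29.8 CPM in the members and 126 CPM in the others (log2 -2.09, -2.39 to -1.80). Its relative Omd was at 476 CPM against 1357 CPM (-1.51, -1.59 to -1.44), while Fmod, Lum, Dcn, Aspn and Bgn of the same family had log2 ratios of -0.37, -0.47, -0.39, -0.34 and -0.11, and Epyc and Prelp of 0.30 and 0.33. The family was looked up after the values of Ogn and Omd were seen. Further lowest genes were Prkg1, a cGMP-dependent kinase (log2 -1.89), Hmox1, haem oxygenase (-1.84), the potassium channel gene Kcnq5 (-1.48), Bmp2, a growth factor of cartilage and bone (-1.45), Col12a1 (-1.38), Sorbs2 (-1.33), the force-gated channel gene Piezo2 (-1.29), Mxra8 (-1.27), Rin2 (-1.25) and the heat shock gene Hspa1b (-1.24).

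The share of dividing cells differed by the level of these genes. All barcodes were thinned to 5000 UMIs and grouped by their UMIs of Omd. Members were 55 of 714 barcodes with 0 Omd UMIs (7.70%, 95% interval 5.86% to 9.91%), 58 of 1608 with 1 to 2 (3.61%), 52 of 5682 with 3 to 9 (0.915%) and 2 of 2955 with 10 or more (0.0677%, 0.00820% to 0.244%). For Cytl1 the share was 2.84% at 0 UMIs and 0.152% at 10 or more, for Clu 2.13% and 0.227%, and for Wif1 2.50% and 0.279%. For Snorc the share was 0.741% at 0 UMIs and 0.270% at 1 to 2, with 1 member in each. It was 0.726% at 3 to 9 and 2.23% at 10 or more, so only the highest level stood apart. For Matn3 the share was 1.02% at 0 and 3.16% at 10 or more. Depth before thinning moved with these groups: the median barcode had 10920 UMIs at 0 Omd UMIs and 9618 UMIs at 10 or more, and for Clu 11239 and 7758 UMIs. When dividing barcodes were instead set by at least 5 selecting UMIs after thinning, the shares at 0 and at 10 or more were 6.86% and 0.0338% for Omd, 2.58% and 0.0760% for Cytl1, 1.88% and 0.227% for Clu and 2.26% and 0.279% for Wif1. These genes were chosen after their values were seen. Omd, Clu, Cytl1 and Wif1 are among the lowest genes of these members, so their shares restate those ratios and add no support. The shares by Snorc and Matn3 likewise restate the ratios of these 2 genes.

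**Figure D4:**
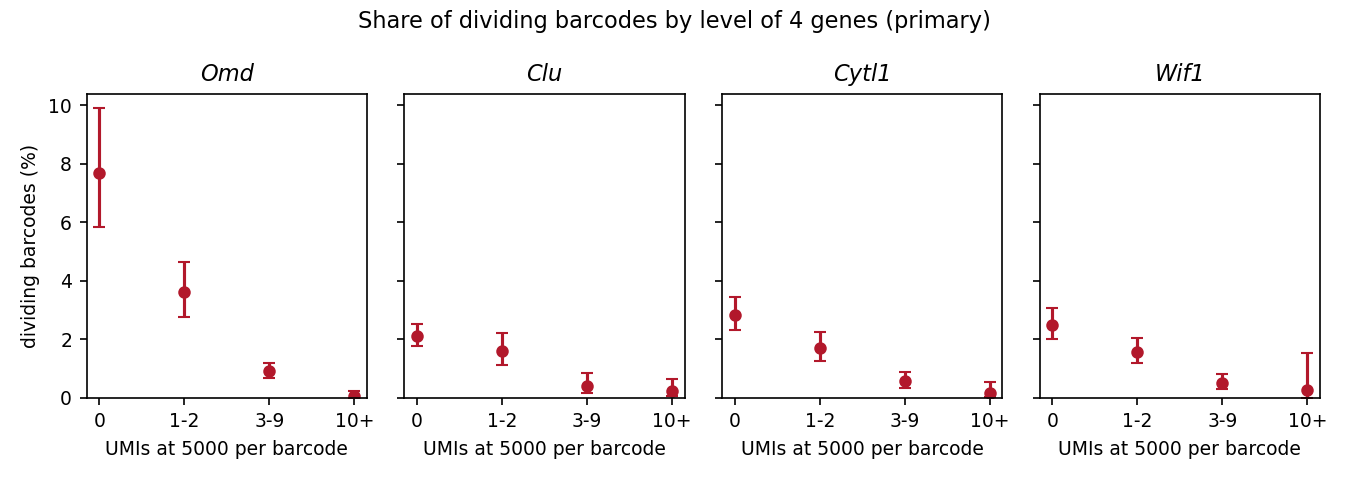
Percentage of filtered primary barcodes that were members, by UMIs of Omd, Clu, Cytl1 and Wif1 after thinning to 5000 UMIs (0, 1 to 2, 3 to 9, 10 or more), with exact 95% intervals for counting error. The share is highest at 0 UMIs for all 4 genes and, for Omd, goes from 7.70% to 0.0677%. The 4 genes are among the lowest of these members, so this direction was given by their choice.

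Maturation genes gave no common direction. Of 15 prehypertrophic genes 8 passed the level, 2 were higher and none lower (median log2 0.19). The higher genes were the transcription factors Runx3, at 26.3 CPM against 10.6 CPM, with 14 of its 84 UMIs in 1 member, and Mef2c, at 38.2 CPM against 18.6 CPM. Both were under the minimum of 20 CPM in the others and passed only through the members. Fgfr3, the growth-restraining receptor of the growth plate, was at log2 0.30 and Pth1r, the receptor of PTHrP, at -0.52. Of 12 hypertrophic genes only 4 passed, and Spp1, osteopontin, was lower at 21.3 CPM against 52.7 CPM (log2 -1.31, list median -0.67), with 29 of its 68 UMIs in the members in 1 cell. None of the 19 growth signalling genes compared passed 2-fold (median log2 -0.26), with Bmpr1a at log2 0.45, Igf1r at 0.04, Fgfr1 at -0.51, Ghr at -0.71 and Myc at -0.71. All 19 immediate early genes, 12 nucleolar genes and 10 perichondrium genes compared lay within 2-fold, with medians of -0.32, -0.01 and -0.23. Over all genes compared, 5731 of 6344 lay within 2-fold, so these counts and that of the growth signalling genes are near the common share. The perichondrium median was -0.54 without the 2 members under 5000 CPM of Col2a1 and -0.05 with members set by 10 marker UMIs per 10000 UMIs. Among 14 glycolysis genes only Aldoa was past 2-fold (log2 -1.06, list median 0.14), and among 13 heat shock genes Hspa1a (-1.04) and Hspa1b (-1.24), with a list median of -0.36.

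The cultured library held a larger share of dividing cells. To compare libraries of unequal depth (medians of 10432 UMIs in filtered primary and 66411 UMIs in filtered cultured barcodes), all barcodes were thinned to 5000 UMIs and called dividing at 5 or more UMIs of the selecting genes. By this rule 146 of 10959 primary barcodes were dividing, 1.33% (1.13% to 1.56%), of which 145 were members, and 559 of 4543 cultured barcodes, 12.3% (11.4% to 13.3%). The minimum of 5000 UMIs kept 4543 of 10798 cultured barcodes, so it bears on that share. Dividing cultured cells had 1419 CPM of cartilage matrix genes against 104126 CPM in dividing primary cells, and Col2a1 at 554 CPM against 54550 CPM.

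Dividing over other barcodes, the same cell cycle lists were higher in both libraries. Among 5546 genes compared in both, 426 were at least 2-fold higher in primary and 325 in cultured dividing cells, and 291 in both, which were 68.3% of the primary and 89.5% of the cultured genes. At least 2-fold lower were 81 genes in primary and 27 in cultured cells, with 9 in both. The median log2 ratio of the mitotic cyclins and kinases was 6.97 in primary and 4.57 in cultured cells over 21 genes, and that of replication genes 2.25 and 2.39 over 42 genes. The selecting genes were at 13.0 CPM in the other primary and 82.2 CPM in the other cultured barcodes. Of the genes lowest in the members, Omd had a log2 ratio of -1.67 in primary and -0.35 in cultured cells, Clu of -1.91 and -0.38, Ogn of -2.22 and -0.46, and Prkg1 of -1.95 and -0.92. Ccnd2 was at -1.22 and -1.06. Cdkn2c was at 3.19 and 0.16, and Cdkn2d at 2.91 and 2.28. With 1 library of each kind, these differences between libraries were not tested.

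**Figure D5:**
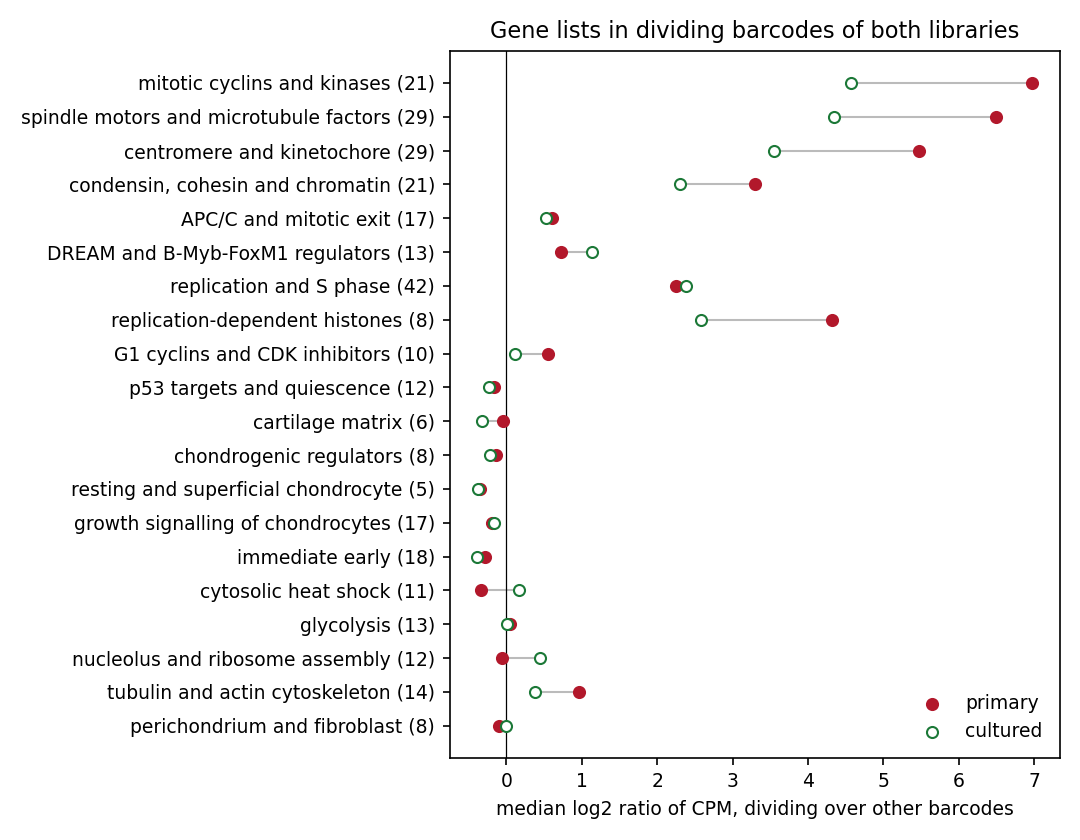
Median log2 ratio of dividing over other barcodes for each gene list with at least 5 genes compared in both libraries, number of genes in brackets, primary as filled red and cultured as open green circles. The mitotic list has 6.97 in primary and 4.57 in cultured cells, and the replication list 2.25 and 2.39.

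The order of replication and mitotic RNA within dividing cells also differed between the libraries. Ranked by mitotic cyclins and kinases into 4 groups, the dividing primary barcodes by the thinned rule had 3540, 2773, 2201 and 1892 CPM of replication genes from the lowest to the highest group. The dividing cultured barcodes had 2072, 3723, 4120 and 2950 CPM, and were thus lowest where primary cells were highest. Their cartilage matrix sums lay between 1384 and 1451 CPM in all 4 groups. This difference was not tested either.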

How the data were processed

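The authors made the files with Cell Ranger 7.0.0, per the submitters' processing notes, and deposited raw UMI counts per gene and barcode for both libraries. The processing notes name mm10, GRCm38 and GRCm39, so no coordinates are given for the measured genes, and the RefSeq promoter windows may not match the files' annotation. The study's thresholds for cell quality were not given in the sources used here. The 30 gene lists, the rule and the members were chosen with earlier results of these data known; 576 of 577 list entries matched the files.

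Groups followed the treatment labels. Counts were summed over cells and divided by their total (CPM). Genes needed 20 CPM in either group, sums under 3 counts were raised to 3, and ratios of at least 2-fold were counted. Named were the 8 selecting genes, the 20 highest ratios with at least 100 CPM in members and the 15 lowest with at least 100 CPM in others (without mitochondrial and ribosomal protein genes), list genes, and 5 promoters. Intervals were exact at 95%: Clopper-Pearson for shares, Poisson for sums and conditional for ratios of single genes. The members' median UMIs had a binomial interval. For the share with a count of 0, a limit of 3 counts was used in place of the exact interval. UMIs of 1 barcode share its capture, so the intervals cover counting error only. Total depth was 3191665 UMIs in members and 131123354 in others, where 3 counts equal 0.940 and 0.0229 CPM. Doublets were not called. Alternatives changed the marker minimum, depth, filters, weighting, centring and CPM minimum. Python 3.11.15, numpy 2.4.6 and scipy 1.17.1 were used, and ratios and intervals were tested on simulated data.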

Additional observations from a re-analysis of the deposited data

Results flagged for a closer look

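H2bc4, a replication-dependent histone gene, had opposite ratios in the libraries. By the thinned rule for dividing cells, in primary cells it was at 499 CPM in dividing and 107 CPM in other barcodes, a log2 ratio of 2.22, and in cultured cells at 85.5 CPM and 243 CPM, a log2 ratio of -1.51. Of 5546 genes compared in both libraries it was the only one at least 2-fold higher in one and at least 2-fold lower in the other. The difference was not tested, since each library stands alone.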

How the results depend on the processing

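No paired analysis was possible because each group was 1 library and no test was run. Over 130 comparisons of the main results with an alternative, 114 stayed within the main value's interval or within 1.5 times its count, and 16 moved. For a list median the limits used were the medians of its genes' limits, which form no exact interval of that median. The members' share of 1.52% was 1.23% with at least 20 marker UMIs, 1.29% with 10 per 10000 UMIs, 0.922% with 10 marker UMIs after thinning to 5000, and 1.12% without barcodes carrying markers of other cell types. The 513 higher and 100 lower genes were 239 and 52 at a minimum of 50 CPM and 895 and 244 at 5 CPM. The lower genes were 214 with every barcode thinned to 5000 UMIs and 167 without barcodes above the 95th percentile of UMIs. The cartilage matrix median of -0.09 was -0.052 with each cell weighing the same, -0.11 without those deep barcodes and -0.12 with ratios centred on all genes. At 5000 UMIs the dividing share was 0.922% in primary and 6.56% in cultured barcodes with at least 10 marker UMIs, and 15.5% in cultured with at least 3. The cause of these moves was not tested, apart from the numbers of genes tested or marker UMIs that each setting fixes. Of 912 further values of the other lists and the named genes, 762 stayed and 150 moved, and none that was at least 2-fold turned its sign. List medians near 0 crossed it for glycolysis (-0.02 to 0.21), nucleolar genes (-0.20 to 0.06) and smooth muscle genes (-0.45 to 0.22). All 35 named genes outside the selecting 8 kept their sign in 16 alternatives, and 34 stayed past 2-fold; the exception was Hspa1b, between -1.71 and -0.91. Leaving out the barcodes in both libraries, chosen after the data were seen, gave 510 higher and 100 lower genes. Low genes are limited by depth: 3 counts in the members equal 0.940 CPM.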

Other observations

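Other gene groups were set side by side in the dividing cells of both libraries, with dividing called at 5 marker UMIs of 5000. The 12 nucleolar and ribosome assembly genes had a median log2 ratio of dividing over other cells of -0.06 in primary and 0.45 in cultured cells. The 11 heat shock genes were at -0.34 and 0.18, the 18 immediate early genes at -0.28 and -0.38, and the 17 APC/C genes at 0.61 and 0.52. The differences between libraries were not tested.

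Within the 167 primary members, single genes differed between the 4 groups. Hells, a chromatin remodeller of replicating DNA, was at 88.0 CPM in group 1, 40.8 in group 2, 11.5 in group 3 and 9.57 in group 4. Aurka, the kinase of the spindle poles, was at 17.0, 42.1, 111 and 163 CPM, an order that the ranking itself fixed, since Aurka is on the list that ranked the cells. Cdkn1c was at 307, 416, 454 and 632 CPM, higher in group 4 than in group 1, whereas Cdkn1a was lower there.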
